A study of Rattus norvegicus with 15 samples.

Results

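The collagen genes and the genes of the enzymes that modify, cleave and crosslink collagen were followed in rat livers with and without CCl4 cirrhosis. Members were the protein coding genes whose symbol is a collagen chain (Col, a number, a, a number) together with Lox, Loxl1 to Loxl4, P4ha1 to P4ha3, Plod1 to Plod3, Serpinh1, Pcolce, Bmp1, Colgalt1 and Colgalt2. The rule found 58 of the 32623 genes in the count table, 42 of them collagen chains and 16 of them enzymes or processing proteins. By type, 10 chains belong to the fibrillar collagens, 6 to the basement membrane collagen IV, 9 to the FACIT collagens, which lie on the surface of fibrils, and 17 to other collagens. Col1a2, Col6a3 and Col21a1 were not analysed here.

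Liver RNA was measured by poly(A) RNA sequencing in 3 groups of age-matched male Wistar rats. Control rats (n = 4, replicates 2 to 5, with replicate 1 not analysed here) received no treatment. Rats of the cirrhosis group (n = 5) inhaled CCl4, a solvent that injures hepatocytes, for 12 weeks and drank water with 0.35 g/L phenobarbital, which the controls did not. Rats of the cirrhosis & eplerenone group (n = 5) had the same CCl4 and phenobarbital and were fed eplerenone, an antagonist of the mineralocorticoid receptor, at 100 mg/kg body weight in hazelnut spread from week 8 to week 12. Livers were collected between 7 and 10 days past the last CCl4 exposure, so the values describe livers after the exposure had ended. The study chose rats for sequencing by how well cirrhosis or the eplerenone treatment had worked, which limits how far the groups stand for all treated rats. No group had eplerenone without CCl4.

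Collagens are secreted proteins built of 3 chains wound into a triple helix. In the endoplasmic reticulum prolyl and lysyl hydroxylases (P4ha, Plod) and the galactosyltransferases (Colgalt) modify the chains, and the chaperone Serpinh1 (HSP47) holds the folded helix. Outside the cell Bmp1, aided by Pcolce, cuts the propeptide from the procollagen end, and the copper enzymes Lox and Loxl1 to Loxl4 oxidise lysines so that fibrils become crosslinked. In the injured liver activated stellate cells and portal fibroblasts lay down fibrillar collagens I and III, and scars mature as crosslinks accumulate. Collagen IV is the network of basement membranes and is also made by endothelial cells and cholangiocytes.

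Levels are given as FPM, the reads of a gene relative to its library's counted reads after scaling by TMM, and are not corrected for gene length, so they are compared between rats and not between genes. The libraries held 16157491 to 21574767 counted reads, and 3 counts stood for 0.139 to 0.186 FPM. A gene was called at an adjusted p below 0.05 in the quasi-likelihood test of edgeR, adjusted by Benjamini-Hochberg over 14417 genes (hereafter edgeR). The p-values measure the spread between these rats, each of which gave 1 sample. Of the 58 members 42 had enough reads to be tested. The other 16 (Col2a1, Col4a6, Col6a4, Col6a5, Col9a1, Col10a1, Col17a1, Col19a1, Col22a1, Col23a1, Col24a1, Col25a1, Col26a1, Col28a1, Colgalt2 and P4ha3) had at most 17 counts in any sample, and Col2a1 and Col19a1 had none in any. Col9a2, Col9a3, Col11a1, Col15a1 and Col20a1 had under 10 counts in every control and entered the test through the CCl4 groups, so a difference in them was built into the filter. Among members that rose, Col5a3 (5 to 10 counts in the controls), Lox (4 to 23), Col8a2 (4 to 22) and Plod2 (9 to 28) had under 10 counts in some controls. They too passed the filter only with the reads of the CCl4 groups.

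Several rats stood apart from the others of their group. Cirrhosis replicate 5 had the lowest level of its group for 10 of the 16 members that rose in cirrhosis and the highest for 1, Lox. Cirrhosis & eplerenone replicate 3 had the highest level of its group for 13 of these 16 members, and replicate 2 had the lowest for 11. The animal labels begin with 13 or 16 in controls and with 15 or 20 in CCl4 rats. What this prefix stands for is not stated, and it cannot be told apart from CCl4 in the comparisons with controls.

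In cirrhosis 16 of the 42 tested members rose and 4 fell (edgeR), 47.6% of those tested, where 20.2% of all genes tested were called, 13.4% as higher and 6.71% as lower. Of the 16 that rose, 4 had under 10 counts in every control and passed the filter through the CCl4 groups (Col9a2, Col9a3, Col11a1 and Col15a1). Col5a3, Col8a2, Lox and Plod2 had under 10 counts in some controls and also needed the CCl4 groups to pass. The members' median log2FC was 0.60 and that of all genes -0.01. In cirrhosis & eplerenone 13 members rose against control and 1 fell, 33.3% of those tested, where 5.22% of all genes were called, 4.33% as higher and 0.895% as lower. Among these 13 are Col9a2 and Col9a3, which passed the filter through the CCl4 groups, and Col5a3, Col8a2, Lox and Plod2, which also needed those groups to pass. The members' median log2FC was 0.97 and that of all genes 0.01. Both comparisons share the 4 controls. With libraries scaled by total counts in place of TMM, which moves the median log2FC of all genes by 0.29 and 0.32, the calls split 18 higher to 1 lower in cirrhosis and 20 to 0 in cirrhosis & eplerenone. The calls of all genes then split 3055 higher to 366 lower and 1282 to 69. When each of the 14 samples was left out in turn, 15 to 22 members were called in cirrhosis and 5 to 18 in cirrhosis & eplerenone, the lowest without control replicate 5. Without that control the calls of all genes fell too, to 1365 and 221 of 14745, from 2906 and 753 of 14417. Of the 20 calls in cirrhosis 15 held in every fit that lacked a sample and tested the gene, and of the 14 in cirrhosis & eplerenone 4 did. Col11a1, among the 15, was tested in 10 of the 14 fits. The least stable were Col5a1 (5 of 14 fits), Loxl4 (6) and Col4a5 (7) in cirrhosis, and Col9a2 (3), Bmp1 (4), Col4a5 and Col8a2 (7 each) and Col4a2 (8) in cirrhosis & eplerenone.

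**Figure D1:**
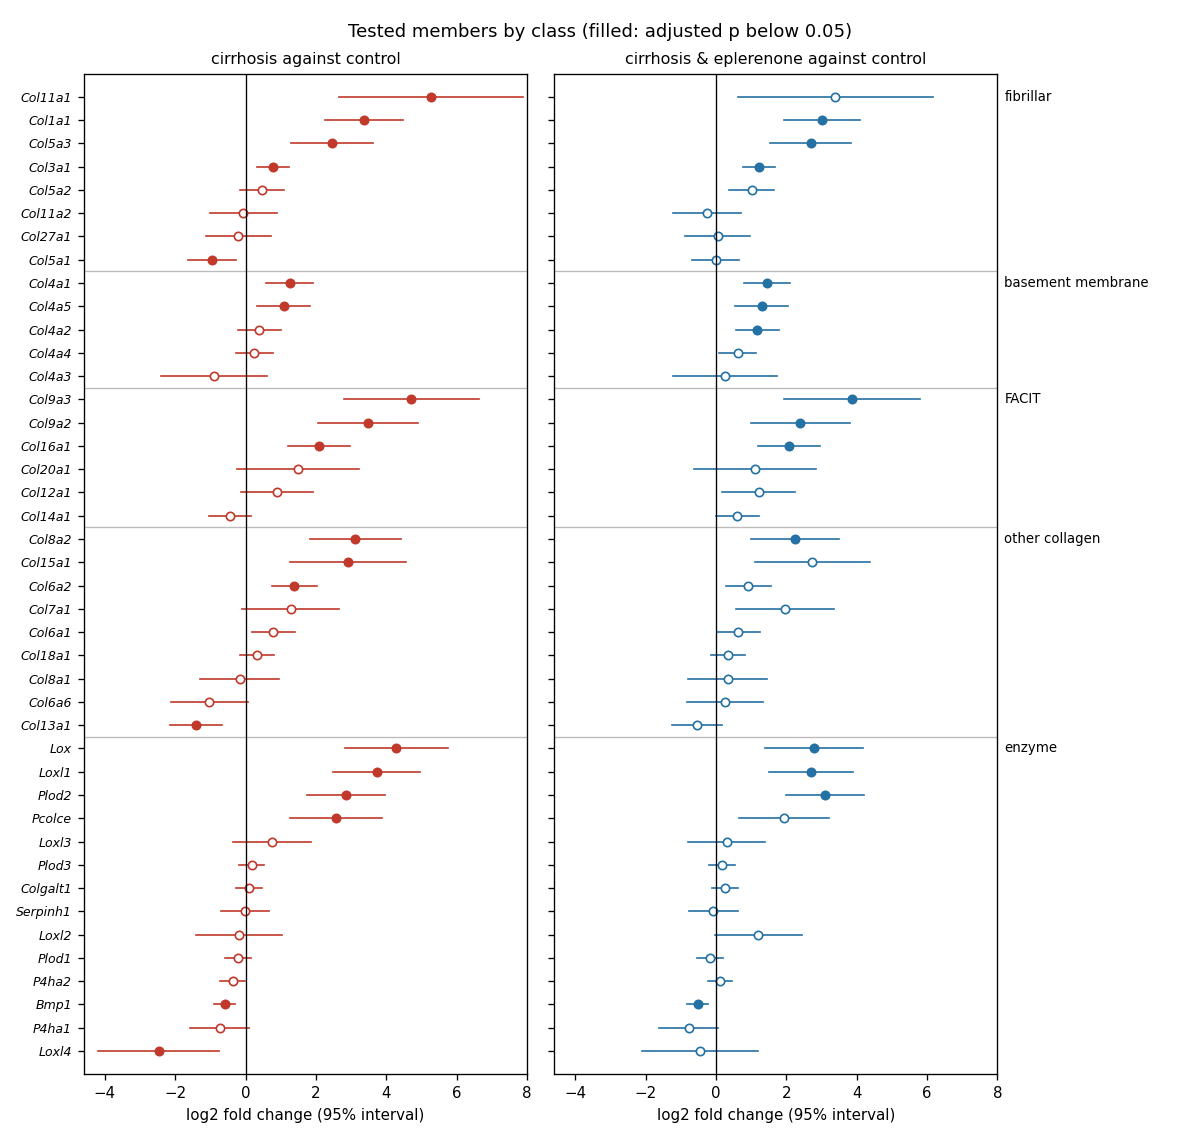
Log2 fold change of each tested member against control, by class, in cirrhosis and in cirrhosis & eplerenone. Points are edgeR estimates, bars their 95% intervals, and filled points are members called at an adjusted p below 0.05. Most called members lie to the right of 0, with Col5a1, Col13a1, Loxl4 and Bmp1 to its left in cirrhosis and Bmp1 alone in cirrhosis & eplerenone.

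Of the 8 fibrillar chains tested, 4 rose and 1 fell in cirrhosis with a class median log2FC of 0.62, and 3 rose in cirrhosis & eplerenone with a median of 1.12. Col11a1 and Col5a3, both among the 4, passed the filter only with the CCl4 groups. Col1a1 (ENSRNOG00000003897, chromosome 10 of rn6), the alpha 1 chain of the type I collagen that forms most of a scar, stood at 2.83, 6.13, 6.90 and 4.26 FPM in control replicates 2, 3, 4 and 5, at 67.2, 37.6, 94.8, 48.6 and 10.6 FPM in cirrhosis replicates 1 to 5 and at 35.5, 24.0, 66.5, 32.8 and 44.3 FPM in cirrhosis & eplerenone replicates 1 to 5. All 10 CCl4 rats lay above all controls, while the CCl4 groups overlapped. The mean was 5.03 ± 1.84 FPM (SD, n = 4) in controls and 51.8 ± 31.6 FPM (SD, n = 5) in cirrhosis, 10.3-fold higher (log2FC 3.36 ± 0.52 SE, adjusted p = 0.00125, edgeR). In cirrhosis & eplerenone it was 40.6 ± 16.20 FPM (SD, n = 5), 8.07-fold above control (log2FC 3.01 ± 0.51 SE, adjusted p = 0.00537, edgeR).

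Col3a1 (ENSRNOG00000003357, chromosome 9), the single chain of collagen III, which forms the fine reticular fibres of the liver, had 92.6, 139, 157 and 113 FPM in the controls, 264, 167, 272, 193 and 187 FPM in cirrhosis and 281, 373, 299, 261 and 251 FPM in cirrhosis & eplerenone, in the same order of replicates. Every CCl4 rat was above every control, and the eplerenone rats lay at the upper end of the cirrhosis range or above it. The increase over control was 1.73-fold in cirrhosis (log2FC 0.79 ± 0.21 SE, adjusted p = 0.0198, edgeR). In cirrhosis & eplerenone it was 2.34-fold (log2FC 1.22 ± 0.21 SE, adjusted p = 0.00633, edgeR).

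**Figure D2:**
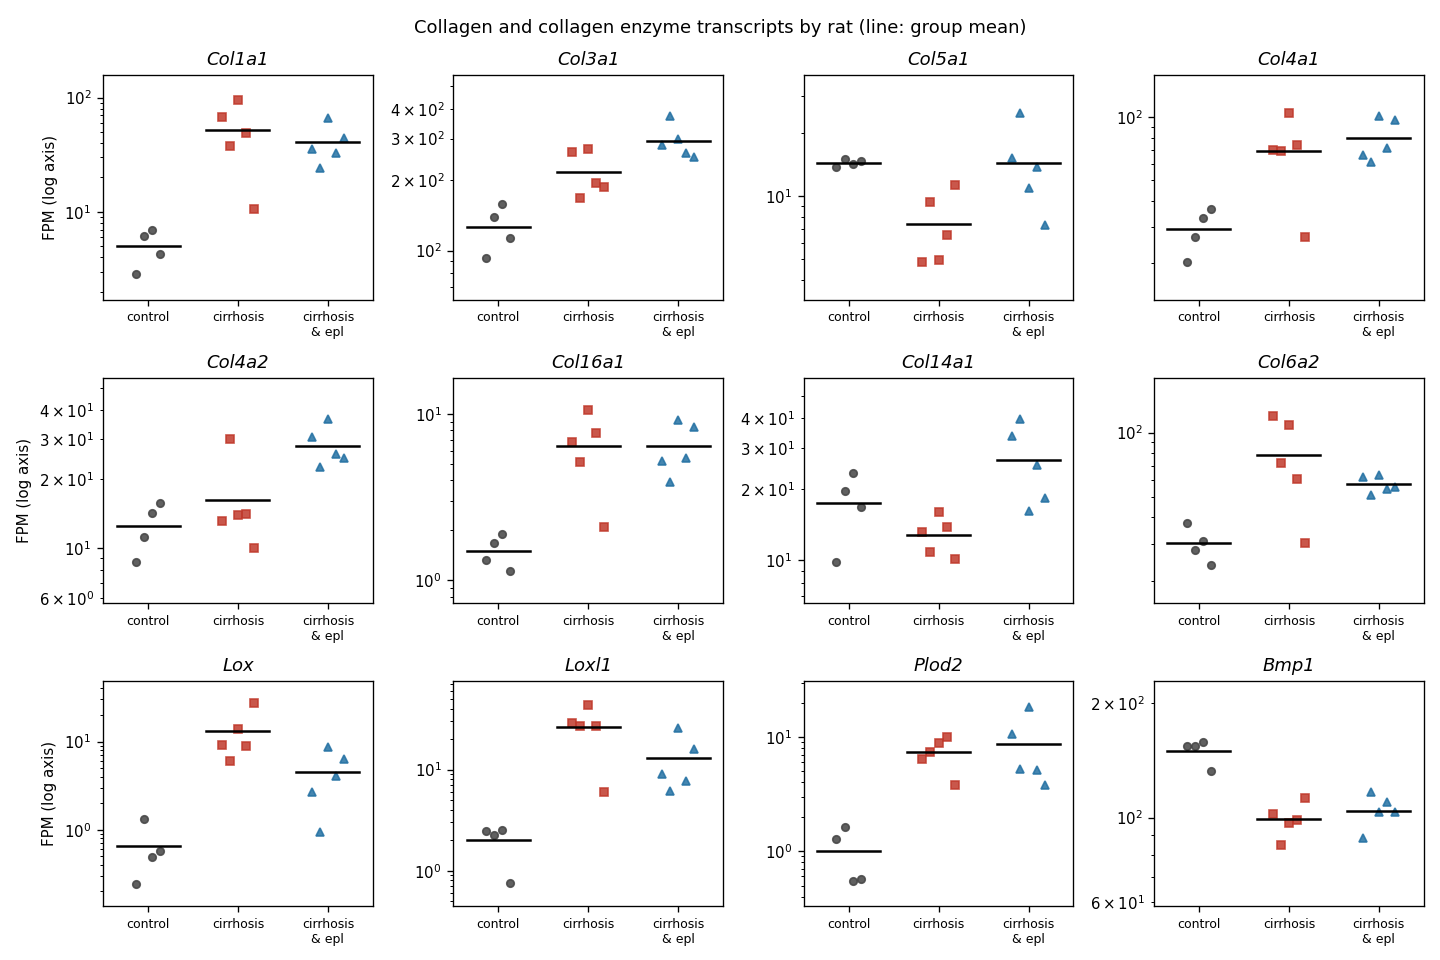
FPM on a log axis of 12 members in each rat of the control, cirrhosis and cirrhosis & eplerenone groups. Points are rats and lines are group means. Col1a1, Lox and Loxl1 show the wide gap between controls and cirrhosis, and Col5a1 and Bmp1 show cirrhosis rats that all lie under the controls.

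Col5a1 (ENSRNOG00000008749, chromosome 3), a chain of the collagen V that nucleates type I fibrils, went the other way. Its level was 13.8, 15.1, 14.2 and 14.7 FPM in the controls, 4.88, 9.34, 4.96, 6.51 and 11.4 FPM in cirrhosis and 15.2, 24.9, 11.0, 13.7 and 7.32 FPM in cirrhosis & eplerenone. All cirrhosis rats were below all controls, and the eplerenone rats overlapped with both groups. It fell 1.94-fold in cirrhosis (log2FC -0.96 ± 0.32 SE, adjusted p = 0.0448, edgeR), a call that was lost with total-count scaling (log2FC -0.66, adjusted p = 0.134, edgeR) and held in 5 of the 14 fits that lacked a rat. Against control, cirrhosis & eplerenone gave a log2FC of -0.00 with a 95% interval of -0.67 to 0.67.

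Neither partner chain of collagen V was called lower. Col5a3 (chromosome 8), the least abundant chain of collagen V in most tissues, had 0.543, 0.289, 0.427 and 0.636 FPM in the controls, 1.89, 2.57, 2.48, 3.44 and 2.74 FPM in cirrhosis and 1.43, 1.25, 7.89, 2.09 and 2.68 FPM in cirrhosis & eplerenone. The CCl4 rats were all above the controls, with cirrhosis & eplerenone replicate 3 far above the rest. It rose 5.49-fold in cirrhosis (log2FC 2.46, adjusted p = 0.00755, edgeR) and 6.46-fold in cirrhosis & eplerenone (log2FC 2.69, adjusted p = 0.0125, edgeR). Col5a2, the chain that pairs with Col5a1 in the common form of collagen V, had 7.02 ± 0.962 FPM in controls and was not called in cirrhosis (9.66 ± 2.09 FPM, log2FC 0.46, adjusted p = 0.266, edgeR) or in cirrhosis & eplerenone (14.2 ± 7.11 FPM, log2FC 1.02, adjusted p = 0.0626, edgeR).

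Col11a1, a chain of the collagen XI best known from cartilage, was read 1 time in all controls together, 82 times in cirrhosis and 22 times in cirrhosis & eplerenone. It entered the test through the CCl4 groups, so a difference from control was built into the filter. In cirrhosis its ratio to control was 55.5 with a counting interval of 9.69 to 2220 at the 95% level, which covers counting error only (adjusted p = 0.00964, edgeR). For cirrhosis & eplerenone the ratio was 15.1 with an interval of 2.44 to 622, and it was not called (adjusted p = 0.148, edgeR). Col27a1 (ENSRNOG00000007657, chromosome 5), a fibrillar chain of cartilage and other connective tissue, had 32.8, 16.5, 21.6 and 23.7 FPM in the controls, 9.26, 36.0, 5.56, 14.8 and 36.3 FPM in cirrhosis and 31.1, 26.8, 25.3, 21.3 and 18.4 FPM in cirrhosis & eplerenone. The groups overlapped, and the cirrhosis rats spread wider than the controls on both sides. In cirrhosis its log2FC was -0.21 (95% interval -1.13 to 0.71), and cirrhosis & eplerenone gave 0.06 (-0.87 to 0.98). Col11a2 was not called in either comparison, with log2FC of -0.06 and -0.25.

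The balance of collagen III and collagen I was read from the ratio of Col3a1 to Col1a1 within each rat. This ratio was chosen with earlier results of these data known. The log2 ratio was 5.03, 4.51, 4.51 and 4.73 in the controls, 1.97, 2.15, 1.52, 1.99 and 4.14 in cirrhosis and 2.98, 3.96, 2.17, 2.99 and 2.50 in cirrhosis & eplerenone. The CCl4 rats all lay under the controls, with cirrhosis replicate 5 closest to them. The mean log2 ratio differed from control by -2.34 in cirrhosis and by -1.77 in cirrhosis & eplerenone (p = 0.0159 and adjusted p = 0.0476 over 6 comparisons for each, exact two-sided permutation test). The difference between the CCl4 groups was 0.57 (p = 0.325, exact two-sided permutation test) and became 1.01 without cirrhosis replicate 5 (adjusted p = 0.0476, exact permutation test). Both differences from control kept their sign without any 1 rat, but their adjusted p was then 0.0536 to 0.0857 (exact permutation test), above 0.05 in every such comparison, although each unadjusted p (0.0179 or 0.0286, exact permutation test) was the smallest these group sizes allow. With all rats kept, the smallest p the test can give was 0.00794.

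**Figure D3:**
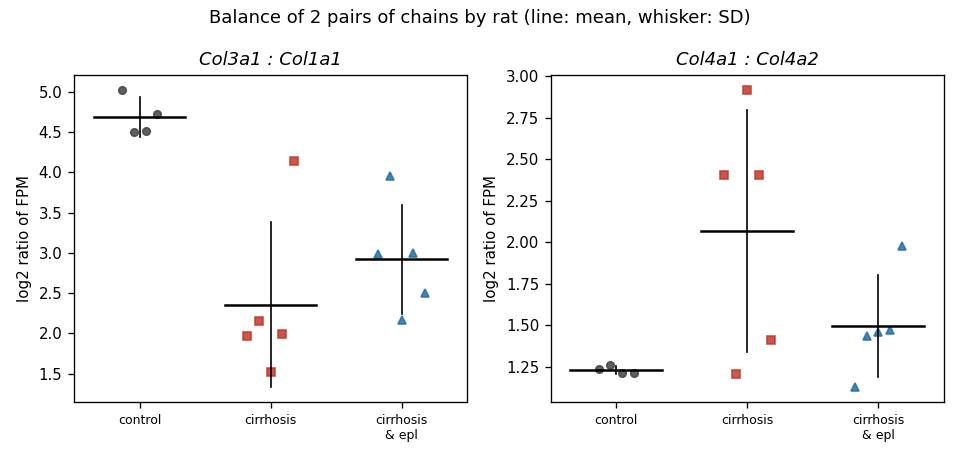
Log2 ratio of Col3a1 to Col1a1 and of Col4a1 to Col4a2 in each rat. Points are rats, lines group means and whiskers SD. The first ratio is lower in every CCl4 rat than in every control, and the second lies between 1.21 and 1.26 in the controls and spreads from 1.13 to 2.92 in the CCl4 rats.

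Of the 5 basement membrane chains tested, 2 rose in cirrhosis with a class median log2FC of 0.39, and 3 rose in cirrhosis & eplerenone with a median of 1.18. Col4a1 and Col4a2 encode the 2 chains of the collagen IV found in most basement membranes and lie head to head on chromosome 16. In RefSeq (GRCr8) their starts are 77 bases apart, and the stretch between them is shown because both genes start from it in opposite directions. Col4a2 runs on the minus strand (84749672 to 84885520) and Col4a1 on the plus strand (84885597 to 84996482). The sequence is chr16:84885521-84885596, read 5′ to 3′ on the plus strand, with capitals for a GC box (GGGCGG, or CCGCCC on the other strand), of which it holds 1.
Col4a1-Col4a2 interval: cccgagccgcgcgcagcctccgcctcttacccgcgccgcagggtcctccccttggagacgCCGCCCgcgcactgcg

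From this shared start region Col4a1 (ENSRNOG00000016281) had 20.3, 26.8, 32.8 and 36.3 FPM in the controls, 69.6, 69.4, 105, 74.2 and 26.6 FPM in cirrhosis and 66.4, 61.0, 101.5, 71.3 and 97.5 FPM in cirrhosis & eplerenone. Cirrhosis replicate 5 lay within the control range, and the other 9 CCl4 rats lay above it. The chain rose 2.38-fold in cirrhosis (log2FC 1.25 ± 0.31 SE, adjusted p = 0.0134, edgeR) and 2.74-fold in cirrhosis & eplerenone (log2FC 1.45 ± 0.31 SE, adjusted p = 0.0151, edgeR). Col4a2 (ENSRNOG00000023972) had 8.63, 11.2, 14.2 and 15.6 FPM in the controls, 13.1, 30.0, 13.9, 14.0 and 10.0 FPM in cirrhosis and 30.4, 22.5, 36.8, 25.7 and 24.8 FPM in cirrhosis & eplerenone. Cirrhosis rats other than replicate 2 stayed within the control range, whereas all eplerenone rats were above it. It was not called in cirrhosis (log2FC 0.39, 95% interval -0.22 to 1.00, adjusted p = 0.327, edgeR) and rose 2.26-fold in cirrhosis & eplerenone (log2FC 1.18 ± 0.29 SE, adjusted p = 0.0293, edgeR).

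The level of Col4a1 relative to Col4a2 was nearly constant in controls, with log2 ratios of 1.24, 1.26, 1.21 and 1.21 and an SD of 0.0230. It was 2.40, 1.21, 2.92, 2.41 and 1.41 in cirrhosis, so that replicates 1, 3 and 4 lay far above the controls and replicate 2 at their level. In cirrhosis & eplerenone it was 1.13, 1.44, 1.46, 1.47 and 1.98. The mean difference from control was 0.84 in cirrhosis (p = 0.0873, exact two-sided permutation test) and 0.26 in cirrhosis & eplerenone (p = 0.127, exact two-sided permutation test), each with an adjusted p of 0.152. Between the CCl4 groups it was -0.58 (p = 0.127, exact two-sided permutation test). Without cirrhosis replicate 2 the first difference was 1.05, and without cirrhosis & eplerenone replicate 1 the second was 0.36 (p = 0.0286 and adjusted p = 0.0571 for each, exact permutation test).

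Col4a5 (chromosome X), a chain of the network known from kidney glomeruli and mutated in Alport syndrome, had 2.71, 4.51, 4.52 and 3.43 FPM in the controls, 4.94, 11.7, 4.48, 10.3 and 8.87 FPM in cirrhosis and 12.0, 8.76, 13.8, 7.17 and 4.86 FPM in cirrhosis & eplerenone. All eplerenone rats lay above the controls, and in cirrhosis replicate 3 lay within their range. It rose 2.12-fold in cirrhosis (log2FC 1.08, adjusted p = 0.0429, edgeR) and 2.46-fold in cirrhosis & eplerenone (log2FC 1.30, adjusted p = 0.046, edgeR), and each call held in 7 of the 14 fits that lacked a rat. Its network partners were not called. Col4a4 gave a log2FC of 0.25 in cirrhosis and 0.63 in cirrhosis & eplerenone, and Col4a3 gave -0.90 and 0.26.

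Of the 6 FACIT chains tested, 3 rose in cirrhosis with a class median log2FC of 1.79, and 3 rose in cirrhosis & eplerenone with a median of 1.65. Col9a2, Col9a3 and Col20a1 are among the genes that entered the test through the CCl4 groups. Col16a1 (ENSRNOG00000031475, chromosome 5), a minor collagen at the surface of fibrils and basement membranes, had 1.33, 1.68, 1.89 and 1.14 FPM in the controls, 6.82, 5.14, 10.5, 7.69 and 2.08 FPM in cirrhosis and 5.21, 3.88, 9.23, 5.42 and 8.31 FPM in cirrhosis & eplerenone. The CCl4 rats were all above the controls, cirrhosis replicate 5 by little. It rose 4.26-fold in cirrhosis (log2FC 2.09 ± 0.41 SE, adjusted p = 0.00424, edgeR) and 4.23-fold in cirrhosis & eplerenone (log2FC 2.08 ± 0.41 SE, adjusted p = 0.0113, edgeR).

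Col14a1 (ENSRNOG00000026415, chromosome 7), a collagen that binds to fibrils and limits their growth in width, had 9.83, 19.6, 23.4 and 16.8 FPM in the controls, 13.1, 10.8, 15.9, 13.8 and 10.1 FPM in cirrhosis and 33.5, 39.6, 16.15, 25.2 and 18.3 FPM in cirrhosis & eplerenone. Cirrhosis rats lay in the lower part of the control range, and the eplerenone rats lay above all cirrhosis rats while overlapping with the controls. It was not called against control in cirrhosis (log2FC -0.45, 95% interval -1.05 to 0.15, adjusted p = 0.251, edgeR) or in cirrhosis & eplerenone (log2FC 0.61, adjusted p = 0.243, edgeR).

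Col9a3 (ENSRNOG00000009531, chromosome 3), a chain of the cartilage collagen IX, was read in 1 control at 0.173 FPM and not in the other 3. It had 0.555, 2.00, 0.647, 1.90 and 1.61 FPM in cirrhosis and 1.02, 0.438, 1.34, 0.395 and 0.492 FPM in cirrhosis & eplerenone, above every control in each case. On 3 counts in the controls against 135 in cirrhosis the ratio was 30.5 with a 95% counting interval of 10.2 to 150 (adjusted p = 0.00366, edgeR), and on 76 counts in cirrhosis & eplerenone it was 17.4 with an interval of 5.72 to 86.0 (adjusted p = 0.0232, edgeR). Col9a2, another chain of the same molecule, rose from 0.181 ± 0.149 FPM in controls to 2.07 ± 0.467 FPM in cirrhosis (log2FC 3.47, adjusted p = 0.00366, edgeR) and 0.980 ± 0.553 FPM in cirrhosis & eplerenone (log2FC 2.40, adjusted p = 0.0458, edgeR). The last call held in 3 of the 14 fits that lacked a rat. Col12a1, which links fibrils in tendon and skin, was not called in cirrhosis (log2FC 0.89, adjusted p = 0.191, edgeR) or in cirrhosis & eplerenone (log2FC 1.21, adjusted p = 0.167, edgeR). Col20a1 was not called either, with log2FC of 1.49 and 1.11.

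Of the 9 other collagens tested, 3 rose and 1 fell in cirrhosis with a class median log2FC of 0.78, and 1 rose in cirrhosis & eplerenone with a median of 0.64. Col18a1 (ENSRNOG00000001229, chromosome 20), a heparan sulfate carrying collagen of basement membranes that gives rise to endostatin and is made by hepatocytes too, had 471, 626, 440 and 564 FPM in the controls, 777, 692, 828, 530 and 464 FPM in cirrhosis and 737, 749, 445, 665 and 742 FPM in cirrhosis & eplerenone. The groups overlapped. Its log2FC was 0.32 in cirrhosis (95% interval -0.16 to 0.81, adjusted p = 0.302, edgeR) and became 0.61 with total-count scaling, where it was called (adjusted p = 0.034, edgeR). In cirrhosis & eplerenone it was 0.35 (adjusted p = 0.434, edgeR).

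Col6a2 (ENSRNOG00000001254, chromosome 20), a chain of the beaded filaments that tie cells to the matrix, had 37.5, 28.0, 31.0 and 23.9 FPM in the controls, 119, 72.1, 109, 60.4 and 30.4 FPM in cirrhosis and 61.9, 50.9, 63.5, 54.0 and 55.5 FPM in cirrhosis & eplerenone. Cirrhosis replicate 5 lay within the control range and the other CCl4 rats above it. The eplerenone rats were close together (SD 5.34 FPM against 36.2 FPM in cirrhosis). It rose 2.60-fold in cirrhosis (log2FC 1.38 ± 0.30 SE, adjusted p = 0.00725, edgeR). In cirrhosis & eplerenone it was not called (log2FC 0.93, adjusted p = 0.0837, edgeR), but it passed with DESeq2 (adjusted p = 0.031) and with total-count scaling (adjusted p = 0.025, edgeR). Its partner Col6a1 had 35.3 ± 3.42 FPM in controls and 60.5 ± 25.7 FPM in cirrhosis and was not called (log2FC 0.78, adjusted p = 0.0656, edgeR), nor was it in cirrhosis & eplerenone (log2FC 0.64, adjusted p = 0.215, edgeR).

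Col8a2 (chromosome 5), a short-chain collagen of vessel walls and the cornea, had 0.241, 1.10, 1.34 and 0.445 FPM in the controls, 9.65, 8.90, 9.28, 5.23 and 1.19 FPM in cirrhosis and 4.09, 2.38, 6.31, 2.82 and 3.17 FPM in cirrhosis & eplerenone. Only cirrhosis replicate 5 of the CCl4 rats lay within the control range. It rose 8.68-fold in cirrhosis (log2FC 3.12, adjusted p = 0.00381, edgeR) and 4.77-fold in cirrhosis & eplerenone (log2FC 2.26, adjusted p = 0.038, edgeR). Col15a1, a basement membrane collagen related to Col18a1, rose from 0.149 ± 0.0974 FPM to 1.17 ± 0.762 FPM in cirrhosis (log2FC 2.91, adjusted p = 0.0183, edgeR) and stood at 1.04 ± 0.840 FPM in cirrhosis & eplerenone, where it was not called (adjusted p = 0.0516, edgeR). Col15a1 too entered the test through the CCl4 groups, so a difference from control was built into the filter. Col8a2 had too few counts in some controls and also passed only with the CCl4 groups.

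Col13a1 (chromosome 20), a collagen that spans the cell membrane, was the member of this class that fell. It had 7.12, 8.27, 7.63 and 10.9 FPM in the controls, 6.32, 1.92, 2.27, 2.67 and 2.80 FPM in cirrhosis and 5.26, 5.38, 4.09, 9.31 and 5.30 FPM in cirrhosis & eplerenone. All cirrhosis rats were below all controls, and the eplerenone rats overlapped with both groups. It was 2.66-fold lower in cirrhosis (log2FC -1.41 ± 0.34 SE, adjusted p = 0.0119, edgeR) and was not called in cirrhosis & eplerenone (log2FC -0.53, adjusted p = 0.412, edgeR). Col6a6, Col7a1 and Col8a1 were not called in either comparison, with log2FC of -1.03, 1.28 and -0.17 in cirrhosis and 0.26, 1.97 and 0.34 in cirrhosis & eplerenone.

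Of the 14 enzymes and processing proteins tested, 4 rose and 2 fell in cirrhosis with a class median log2FC of 0.04, and 3 rose and 1 fell in cirrhosis & eplerenone with a median of 0.22. Lox and Plod2, among those that rose, passed the filter only with the CCl4 groups. Lox (ENSRNOG00000014426, chromosome 18), the lysyl oxidase that starts crosslinking, had 0.241, 1.33, 0.488 and 0.572 FPM in the controls, 9.10, 6.00, 14.0, 8.82 and 27.3 FPM in cirrhosis and 2.66, 0.939, 8.74, 4.12 and 6.39 FPM in cirrhosis & eplerenone. All cirrhosis rats were above the controls, while cirrhosis & eplerenone replicate 2 lay within the control range. The rise was 19.5-fold in cirrhosis (log2FC 4.29 ± 0.69 SE, adjusted p = 0.00144, edgeR) and 6.88-fold in cirrhosis & eplerenone (log2FC 2.78 ± 0.66 SE, adjusted p = 0.0235, edgeR). Of the 16 members that rose in cirrhosis, Lox alone was highest in cirrhosis replicate 5.

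Loxl1 (ENSRNOG00000008680, chromosome 8), an oxidase that also acts on elastic fibres, had 2.47, 2.26, 2.50 and 0.763 FPM in the controls, 28.8, 26.8, 43.6, 26.9 and 6.01 FPM in cirrhosis and 9.05, 6.13, 26.0, 7.73 and 16.0 FPM in cirrhosis & eplerenone. The CCl4 rats were all above the controls. The rise was 13.2-fold in cirrhosis (log2FC 3.72 ± 0.58 SE, adjusted p = 0.00132, edgeR) and 6.48-fold in cirrhosis & eplerenone (log2FC 2.70 ± 0.56 SE, adjusted p = 0.0136, edgeR). Loxl4 (chromosome 1), another oxidase of the family, was lower instead. It had 17.4, 19.2, 8.61 and 21.9 FPM in the controls, 2.16, 6.65, 1.13, 0.615 and 4.46 FPM in cirrhosis and 10.5, 40.9, 2.87, 5.19 and 1.69 FPM in cirrhosis & eplerenone. The cirrhosis rats were all under the controls, and the eplerenone rats spread from below to above them. It fell 5.54-fold in cirrhosis (log2FC -2.47 ± 0.81 SE, adjusted p = 0.0438, edgeR), a call that total-count scaling ended (adjusted p = 0.052, edgeR) and that held in 6 of the 14 fits that lacked a rat. Loxl2 and Loxl3 were not called, with log2FC of -0.19 and 0.74 in cirrhosis and 1.20 and 0.30 in cirrhosis & eplerenone.

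Among the enzymes inside the cell, Plod2 (ENSRNOG00000030183, chromosome 8), the lysyl hydroxylase of the telopeptides, whose product forms the crosslinks that resist collagenase, was the one that rose. It had 1.27, 1.62, 0.549 and 0.572 FPM in the controls, 6.43, 7.43, 8.95, 10.0 and 3.81 FPM in cirrhosis and 10.7, 5.26, 18.5, 5.14 and 3.77 FPM in cirrhosis & eplerenone, with every CCl4 rat above every control. The rise was 7.25-fold in cirrhosis (log2FC 2.86 ± 0.52 SE, adjusted p = 0.00279, edgeR) and 8.59-fold in cirrhosis & eplerenone (log2FC 3.10 ± 0.52 SE, adjusted p = 0.00531, edgeR). Plod1 (ENSRNOG00000007763, chromosome 5), which hydroxylates lysines within the helix, had 45.4, 60.1, 41.8 and 52.7 FPM in the controls, 39.5, 38.5, 45.0, 38.1 and 54.2 FPM in cirrhosis and 46.1, 55.3, 32.6, 43.1 and 45.6 FPM in cirrhosis & eplerenone. The groups overlapped, and it was not called, with a log2FC of -0.22 (95% interval -0.58 to 0.15) in cirrhosis and -0.17 in cirrhosis & eplerenone. Plod3 gave log2FC of 0.17 and 0.18.

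The chaperone Serpinh1 (ENSRNOG00000016831, chromosome 1) had 53.3, 63.7, 29.0 and 43.7 FPM in the controls, 64.3, 52.3, 56.5, 39.6 and 22.4 FPM in cirrhosis and 57.1, 33.7, 70.6, 29.0 and 35.3 FPM in cirrhosis & eplerenone. The 3 groups covered nearly the same range. The log2FC was -0.01 in cirrhosis (95% interval -0.70 to 0.68) and -0.07 in cirrhosis & eplerenone, and total-count scaling turned both signs, to 0.28 and 0.33. Colgalt1 (ENSRNOG00000023317, chromosome 16), which adds galactose to hydroxylysine, had 41.0, 57.6, 40.5 and 46.7 FPM in the controls, 53.2, 48.5, 50.9, 48.0 and 47.8 FPM in cirrhosis and 47.4, 47.7, 44.4, 67.3 and 72.3 FPM in cirrhosis & eplerenone. Its groups overlapped too. The log2FC was 0.10 in cirrhosis (95% interval -0.27 to 0.46) and 0.27 in cirrhosis & eplerenone, the latter called only with total-count scaling (log2FC 0.56, adjusted p = 0.045, edgeR). The prolyl hydroxylase subunits P4ha1 and P4ha2 were not called, with log2FC of -0.74 and -0.37 in cirrhosis and -0.77 and 0.12 in cirrhosis & eplerenone.

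Outside the cell the propeptide-cutting protease and its enhancer went opposite ways. Bmp1 (ENSRNOG00000010890, chromosome 15), the procollagen C-proteinase, had 154, 154, 158 and 133 FPM in the controls, 102, 84.5, 96.8, 98.6 and 112 FPM in cirrhosis and 88.5, 117, 103, 110 and 103 FPM in cirrhosis & eplerenone. All CCl4 rats were below all controls. It fell 1.51-fold in cirrhosis (log2FC -0.60 ± 0.14 SE, adjusted p = 0.00963, edgeR) and 1.44-fold in cirrhosis & eplerenone (log2FC -0.52 ± 0.14 SE, adjusted p = 0.042, edgeR). Total-count scaling gave -0.31 and -0.21 and ended both calls (adjusted p = 0.143 and 0.395, edgeR). Pcolce (chromosome 12), the enhancer of Bmp1, had 5.73, 5.67, 7.08 and 4.52 FPM in the controls, 41.3, 29.5, 66.8, 26.7 and 6.72 FPM in cirrhosis and 9.51, 7.70, 52.7, 14.2 and 25.3 FPM in cirrhosis & eplerenone. Cirrhosis replicate 5 alone of the CCl4 rats lay within the control range. It rose 5.94-fold in cirrhosis (log2FC 2.57 ± 0.62 SE, adjusted p = 0.0113, edgeR) and was not called in cirrhosis & eplerenone (log2FC 1.93, adjusted p = 0.0768, edgeR).

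Promoter sequence is shown for 4 members that rose in both comparisons and whose 250 bases upstream of the start are given by RefSeq (GRCr8), to let the reader see how unlike they are in GC boxes (GGGCGG or CCGCCC) and CCAAT motifs, which capitals mark on both strands. The windows are chr8:67612225-67612474 (minus strand) for Loxl1, chr8:101964068-101964317 (plus) for Plod2, chr8:27625949-27626198 (minus) for Col5a3 and chr5:143870519-143870768 (plus) for Col8a2, each read 5′ to 3′ towards the gene.
Loxl1: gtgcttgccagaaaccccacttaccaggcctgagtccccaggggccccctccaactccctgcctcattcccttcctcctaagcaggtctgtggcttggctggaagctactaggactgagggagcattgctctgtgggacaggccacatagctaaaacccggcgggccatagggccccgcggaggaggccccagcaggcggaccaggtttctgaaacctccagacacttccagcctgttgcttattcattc
Plod2: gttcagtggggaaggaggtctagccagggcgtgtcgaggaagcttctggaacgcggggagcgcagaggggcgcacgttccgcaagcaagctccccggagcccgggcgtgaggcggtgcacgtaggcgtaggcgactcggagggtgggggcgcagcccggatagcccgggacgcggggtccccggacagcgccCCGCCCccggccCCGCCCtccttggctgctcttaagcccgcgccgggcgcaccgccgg
Col5a3: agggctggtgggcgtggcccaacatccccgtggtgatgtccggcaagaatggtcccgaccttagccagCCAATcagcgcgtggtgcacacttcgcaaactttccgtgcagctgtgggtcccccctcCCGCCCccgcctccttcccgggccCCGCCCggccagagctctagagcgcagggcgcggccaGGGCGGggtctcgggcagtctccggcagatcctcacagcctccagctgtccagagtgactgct
Col8a2: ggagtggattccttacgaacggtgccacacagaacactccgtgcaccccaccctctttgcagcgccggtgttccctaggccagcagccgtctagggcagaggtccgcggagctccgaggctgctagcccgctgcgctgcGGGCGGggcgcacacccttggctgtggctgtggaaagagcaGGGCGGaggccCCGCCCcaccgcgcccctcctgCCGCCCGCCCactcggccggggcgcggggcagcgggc

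Loxl1 held no motif of either kind in this window, Plod2 held 2 GC boxes, Col5a3 held 3 with 1 CCAAT, and Col8a2 held 5. The choice of these genes followed no stated rule. Col4a1, Col4a5, Col9a2 and Col16a1 also rose in both comparisons and have a window. Of these, Col4a1, Col4a5 and Col16a1 hold a GC box there and Col9a2 does not. Windows were found for 46 of the 58 members, and not for Bmp1, Col1a1, Col2a1, Col3a1, Col6a2, Col9a3, Col12a1, Col14a1, Col22a1, Col25a1, Lox and Loxl2. A GC box was present in 28 of 46 members (60.9%), against 40.3% of the 19005 protein coding genes with a window and 32.4% of all 27457 genes. It was present in 8 of 11 members called higher in cirrhosis (72.7%), in 2 of 3 called lower and in 14 of 19 tested and not called (73.7%). CCAAT was present in 12 of 46 members (26.1%), against 35.5% of protein coding genes and 34.3% of all. A match describes the letters in the window and says nothing of which factor binds there.

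**Figure D4:**
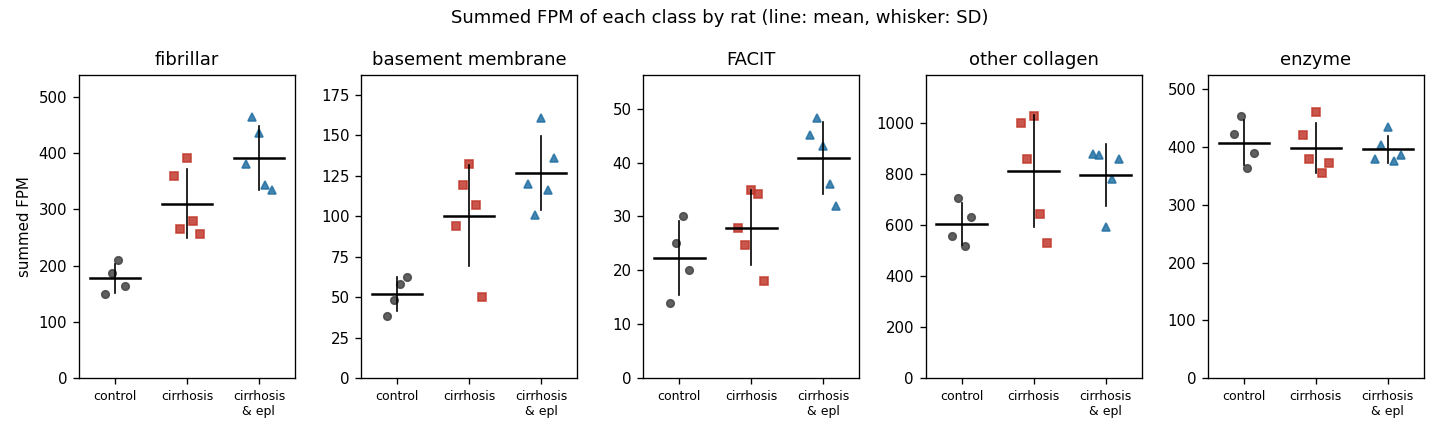
Summed FPM of the members of each class in each rat of the 3 groups. Points are rats, lines means and whiskers SD. Fibrillar sums of all CCl4 rats lie above the controls, basement membrane sums do except in cirrhosis replicate 5, and the enzyme sums of the 3 groups overlap.

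Summed over the class, fibrillar reads amounted to 177 ± 26.3 FPM in controls (SD, n = 4), 310 ± 61.0 FPM in cirrhosis and 391 ± 57.2 FPM in cirrhosis & eplerenone (SD, n = 5 each). The basement membrane sum ranged from 38.7 to 62.4 FPM in controls, from 50.3 to 132 FPM in cirrhosis and from 100.9 to 161 FPM in cirrhosis & eplerenone. The FACIT sum was 22.3 ± 6.89, 27.9 ± 6.99 and 40.9 ± 6.70 FPM in the same order. For the enzymes the sums were 408 ± 39.1, 398 ± 42.9 and 396 ± 23.8 FPM, means that differed by less than the spread between rats, while within the class Lox, Loxl1, Plod2 and Pcolce rose and Loxl4 and Bmp1 fell in cirrhosis. These sums follow the genes with most reads, among them Col3a1 and Bmp1, and are given without a test.

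Whether eplerenone changed the members was read from the direct comparison of the CCl4 groups. None of the 42 tested members was called (edgeR, and 0 with DESeq2), where 0.0139% of all genes tested were called by edgeR and 0.513% by DESeq2. An unadjusted p below 0.05 was found for 12 of the 42 members and for 2076 of the 14417 genes tested (edgeR). The members' median log2FC was 0.12. The 95% intervals of 30 members included 0, those of 9 lay above 0 and those of 3 below. Of the 42 intervals 14 stayed within a doubling or halving in either direction and 28 reached beyond it, so for those 28 a change of that size lay within the interval. By class the median log2FC was 0.25 for fibrillar chains, 0.38 for basement membrane chains, -0.19 for FACIT chains, 0.02 for other collagens and 0.03 for enzymes.

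Among the 12, the interval lay above 0 for Col3a1, Col4a2, Col5a1, Col6a6, Col13a1, Col14a1, Loxl2, Loxl4 and P4ha2 and below 0 for Col11a1, Lox and Loxl1. The lowest unadjusted p belonged to Col14a1 (log2FC 1.06 ± 0.27 SE, 95% interval 0.49 to 1.63, adjusted p = 0.312, edgeR), whose CCl4 groups did not overlap. Lox gave -1.50 (95% interval -2.64 to -0.36, adjusted p = 0.312, edgeR) and Loxl1 gave -1.02 (-2.01 to -0.03, adjusted p = 0.337, edgeR). Col5a1 gave 0.96 (0.32 to 1.60, adjusted p = 0.312, edgeR) and Col4a2 gave 0.79 (0.22 to 1.36, adjusted p = 0.312, edgeR). Col5a1, Col13a1 and Loxl4 had been lower in cirrhosis than in control, and both contrasts use the same cirrhosis rats.

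Intervals that included 0 varied in width. Col1a1 gave -0.35 (95% interval -1.25 to 0.56, adjusted p = 0.685, edgeR), Col16a1 -0.01 (-0.77 to 0.75), Col4a1 0.20 (-0.40 to 0.80), Col6a2 -0.45 (-1.03 to 0.13), Plod2 0.25 (-0.66 to 1.15) and Bmp1 0.08 (-0.20 to 0.36). Col9a2 gave -1.07 (-2.17 to 0.04). Of these, Bmp1 had the narrowest interval, and those of Col1a1, Col6a2, Col9a2 and Plod2 reached beyond 1 or -1.

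**Figure D5:**
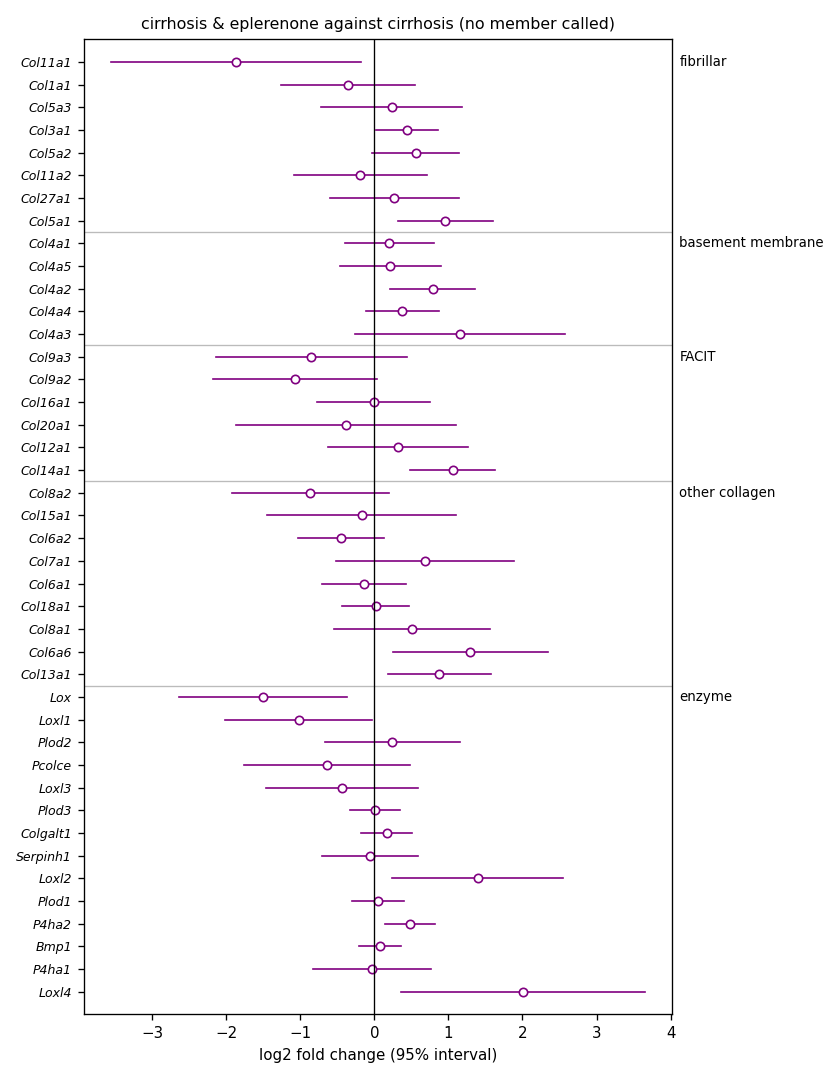
Log2 fold change of each tested member between cirrhosis & eplerenone and cirrhosis, by class. Points are edgeR estimates and bars 95% intervals. No point is filled, since no member was called at an adjusted p below 0.05, and 12 intervals leave out 0.

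The direct comparison depended on which rats entered it. Within the rats whose label begins with 15 (3 cirrhosis, 2 cirrhosis & eplerenone) and within those whose label begins with 20 (2 and 3), no member was called (edgeR). Of all genes, 0.607% and 0.0% were called. An unadjusted p below 0.05 was found for 11 of 44 and 4 of 41 members tested, and for 3786 of 14337 and 157 of 14371 genes (edgeR). Loxl1 gave -2.12 and 0.02 in these subsets, Pcolce -2.41 and 0.89, and Col1a1 -1.16 and 0.70. Lox gave -2.41 and -1.45, Col14a1 1.47 and 0.75, and Col3a1 0.49 and 0.53. Without cirrhosis replicate 5 and cirrhosis & eplerenone replicate 3, 2 of the rats that stood apart above, 7 of 41 tested members were called where 9.16% of all genes were (4.46% as higher, 4.7% as lower). Higher in cirrhosis & eplerenone were then Col5a1 (1.22), Col14a1 (1.10), Col6a6 (1.80) and P4ha2 (0.58), and lower were Loxl1 (-1.71), Pcolce (-1.55) and Col8a2 (-1.42), with adjusted p from 0.0189 to 0.0446 (edgeR). These 2 rats were left out with their levels known. Of the 16 members that rose in cirrhosis, the first was lowest of its group for 10 and the second highest for 13. Leaving out both therefore lowers the eplerenone group relative to cirrhosis for such members. Cirrhosis & eplerenone replicate 2, lowest of its group for 11, was kept. The calls and their adjusted p describe the rats kept and are no test of eplerenone.

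Other genes of the collagen pathway were read from a list of 25, of which 21 were in the table and 18 were tested. In cirrhosis 8 rose and 1 fell, 50.0% of those tested where 20.2% of all genes were called, with a median log2FC of 0.79. Those that rose were the collagen uptake receptor Mrc2 (4.04), the collagen-binding kinases Ddr1 (3.21) and Ddr2 (3.23), the procollagen chaperone Fkbp10 (2.82), the N-propeptidase Adamts2 (2.28), the prolyl 3-hydroxylase family members P3h3 (1.34) and P3h4 (1.56), and the collagen-binding Sparc (0.98). Mia2, which helps to load large cargo into export vesicles, fell (-0.86). In cirrhosis & eplerenone Mrc2 (3.05), Ddr1 (2.69) and Adamts2 (1.65) rose against control, 16.7% of those tested where 5.22% of all genes were called. Between the CCl4 groups none of the 18 was called (edgeR). Of these 18, 4 had an unadjusted p below 0.05 in that comparison, where 2076 of all 14417 genes did (edgeR). DESeq2 called 0 of them, where it called 0.513% of all genes.

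Marker genes of several cell types differed between the groups as well. Their counts stand beside 20.2% of all genes called in cirrhosis and 5.22% in cirrhosis & eplerenone against control. Of the stellate cell and myofibroblast markers 3 of 6 tested rose in cirrhosis (Acta2 2.84, Tagln 2.73 and Des 2.31 on the log2 scale). Pdgfrb (log2FC above 0), Lrat (-1.09), the enzyme that stores retinol as esters, and Reln (log2FC below 0) were not called. All 6 had an unadjusted p below 0.05, where 5351 of 14417 genes did (edgeR). The sum of the list ranged from 57.4 to 96.2 FPM in controls, from 70.3 to 194 FPM in cirrhosis and from 86.0 to 181 FPM in cirrhosis & eplerenone. Of the portal fibroblast markers 4 of 5 rose (Thy1, Eln, Fbln1 and Entpd2), with sums of 10.8 to 15.3, 19.6 to 78.3 and 25.0 to 67.0 FPM. All 4 cholangiocyte markers tested rose, with sums of 12.2 to 18.4, 37.5 to 88.5 and 32.0 to 76.6 FPM. Of the endothelial markers 2 of 5 rose (Vwf and Plvap), with Stab2 at -0.99 and not called, of the lymphocyte markers 2 of 4 and of the mesothelial markers 1 of 3 (Msln, with sums of 4.16 to 8.55, 27.6 to 100 and 9.70 to 44.8 FPM for the list). Of the macrophage markers none rose and Cd163 fell, and the 1 vascular smooth muscle marker tested was not called.

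Hepatocyte markers, which check the labelled tissue, summed to 132819 to 147281 FPM in controls, 70571 to 138360 FPM in cirrhosis and 71543 to 129262 FPM in cirrhosis & eplerenone, and none of the 5 was called in cirrhosis by edgeR, while 1 had an unadjusted p below 0.05 and DESeq2 called 1. In cirrhosis & eplerenone 4 portal fibroblast, 2 cholangiocyte and 1 mesothelial marker rose against control. None of the 6 stellate cell or 5 endothelial markers was called there by edgeR, with 3 and 1 at an unadjusted p below 0.05 and 3 and 1 called by DESeq2. Directly between the CCl4 groups none of the 38 markers tested was called by edgeR, and DESeq2 called 1, the mesothelial Msln, where it called 0.513% of all genes. An unadjusted p below 0.05 was found for 7 of the 38 and for 2076 of all 14417 genes (edgeR). The part of these cell types in the members' levels was not tested. In pieces of whole liver, more cells of a type and more RNA per cell cannot be told apart.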

How the data were processed

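Liver poly(A) RNA of 14 rats was used (4 control, 5 cirrhosis, 5 cirrhosis & eplerenone). The authors mapped reads to rn6 with HISAT2 (v. 2.1.0), assigned them to exons and summed by gene with featureCounts, where a read with several matches counts at each, and deposited the raw count per gene without normalization. Use of strand is not given in the sources used here, and reads shared between overlapping genes or near-identical copies may be split or counted more than 1 time. Groups were taken from the labels' treatment.

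The members, all gene lists and the chain ratios were chosen with earlier results of these data known. Genes were filtered with filterByExpr at its default count of 10, scaled by TMM and fitted in 1 model of 3 groups by the quasi-likelihood test of edgeR 4.0.16 (R 4.3.3), with Benjamini-Hochberg adjustment over 14417 genes. Standard errors were taken as log2FC over the square root of F. FPM used TMM library sizes, 16157491 to 21574767 reads before scaling. Counting intervals and floors of 3 counts cover counting error only. Log2 ratios of chains were compared with exact two-sided permutation tests, adjusted over 6 comparisons. A ratio planned with Col1a2 was not run, as that gene was not analysed here.

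Values in every sample were given for the chains and enzymes of highest mean FPM in each class (4 fibrillar, 2 of each other collagen class, 4 enzymes) and, per comparison with control, for the 2 largest called changes at a mean of at least 1 FPM in a group. Further members were given sample by sample after their values were seen. Marker lists covered hepatocytes, stellate cells and myofibroblasts, portal fibroblasts, vascular smooth muscle, endothelium, cholangiocytes, macrophages, lymphocytes and mesothelium.

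Alternatives were DESeq2 1.42.0 (Wald test), other scalings and filters, fits of the compared groups only, the replicate number as a block, the label prefix, and fits without 1 or 2 rats. The steps were tested on simulated data. Sequences come from RefSeq promoter windows (GRCr8), a later build than the rn6 of the counts.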

Additional observations from a re-analysis of the deposited data

Results flagged for a closer look

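In 10 of 78 groups of rats checked, over the members given sample by sample and the chain ratios, 1 rat lay far from the others of its group. How often chance gives such a gap was not worked out for these values, and the groups share the same rats. Col9a3 was read in control replicate 3 at 0.173 FPM and not in the other controls. Bmp1 was lowest in control replicate 5, at 133 FPM against 154 to 158 FPM in the other controls, and still above all CCl4 rats. Col4a2 was highest in cirrhosis replicate 2, at 30.0 FPM against 10.0 to 14.0 FPM in the other cirrhosis rats, which is the rat whose ratio of Col4a1 to Col4a2 lay at the control level. Col18a1 was lowest in cirrhosis & eplerenone replicate 3, at 445 FPM against 665 to 749 FPM, although that rat was highest of its group for most members that rose. Col5a3 was highest in the same rat, at 7.89 FPM against 1.25 to 2.68 FPM. Loxl4 was highest in cirrhosis & eplerenone replicate 2, at 40.9 FPM against 1.69 to 10.5 FPM. Loxl1 was lowest in control replicate 5, at 0.763 FPM against 2.26 to 2.50 FPM in the other controls. Col13a1 was highest in cirrhosis replicate 1, at 6.32 FPM against 1.92 to 2.80 FPM, and in cirrhosis & eplerenone replicate 4, at 9.31 FPM against 4.09 to 5.38 FPM. The log2 ratio of Col3a1 to Col1a1 was 4.14 in cirrhosis replicate 5 against 1.52 to 2.15 in the other cirrhosis rats.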

How the results depend on the processing

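Of the counts of members called, the 20 of cirrhosis against control became 11 with at least 10 counts in every sample, a filter that leaves fewer members to test, and 15 to 22 when a sample was left out. The 14 of cirrhosis & eplerenone against control became 6 with that filter, 7 with the replicate number as a block and 5 to 18 when a sample was left out, with 7, 8, 7 and 5 without control replicates 2 to 5 and 9 and 7 without cirrhosis & eplerenone replicates 1 and 3. Of all genes, the filter left 1983 and 377 of 11199 called in these 2 comparisons, and the block 1743 and 270 of 14417. Leaving out samples lowered the calls of all genes in cirrhosis & eplerenone too, from 753 of 14417. They numbered 417, 312, 415 and 221 without control replicates 2 to 5. Without cirrhosis & eplerenone replicates 1 and 3 they numbered 555 and 378. The 0 between the CCl4 groups became 7 with 4 samples a group, where 1294 of 14126 genes were called, and was 0 without any 1 sample. Same-numbered rats are different animals and their deviations correlated by -0.33 to 0.19, so the block was no main choice. It ended the calls of Bmp1, Col3a1, Col4a5, Col5a1 and Col15a1 in cirrhosis, leaving 15, and of Bmp1, Col4a1, Col4a2, Col4a5, Col8a2, Col9a2 and Col9a3 in cirrhosis & eplerenone. Pathway calls in cirrhosis numbered 4 to 11 without a sample (5 without control replicate 4, 4 without control replicate 5, 5 without cirrhosis replicate 3), and in cirrhosis & eplerenone 6 with DESeq2, 7 with total counts and 2 to 5 without a sample (5 without cirrhosis replicate 5 or cirrhosis & eplerenone replicate 2). Calls of all genes moved as well. In cirrhosis they were 1780 of 14752, 1365 of 14745 and 1746 of 14319 in the 3 fits named, from 2906 of 14417. In cirrhosis & eplerenone they were 1523 (DESeq2) and 1351 (total counts) of 14417, from 753. They were 1080 of 14356 without cirrhosis replicate 5 and 1277 of 14374 without cirrhosis & eplerenone replicate 2. The cause of these shifts was not tested.

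The log2 ratio of Col3a1 to Col1a1 differed from control by -2.24 and -1.79 under the block, where p = 0.125 (exact permutation within replicate numbers) is the smallest p possible and the adjusted p was 0.25. Without a sample it lay between -2.79 and -2.13 in cirrhosis, between -2.03 and -1.58 in cirrhosis & eplerenone and between 0.31 and 1.01 between the CCl4 groups, with an adjusted p of 0.0536 to 0.0857 in all 9 repeats of each control comparison and of 0.0476 at 1.01 (exact permutation test). For Col4a1 to Col4a2 the ranges were 0.63 to 1.05, 0.14 to 0.36 and -0.79 to -0.36. A ratio with Col1a2 was not run.

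Among the members given sample by sample, signs turned only in comparisons in which the member was not called. With total counts log2FC became 0.28, 0.33 and 0.049 for Serpinh1 in the 3 comparisons, 0.28 for Col5a1 in cirrhosis & eplerenone, 0.092 for Col27a1 in cirrhosis, 0.067 for Col16a1 between the CCl4 groups, and 0.066 and 0.12 for Plod1 against control. With DESeq2 it was 0.018 for Serpinh1 in cirrhosis, 0.0050 for Col5a1 in cirrhosis & eplerenone and -0.0015 for Col18a1 between the CCl4 groups. With 4 samples a group it was 0.19 for Serpinh1 in cirrhosis, 0.082 for Col5a1 in cirrhosis & eplerenone, and -0.42 for Plod2, -0.49 for Col5a3 and -0.12 for Col4a1 between the CCl4 groups. The block gave 0.064 for Col16a1 and -0.0075 for Col5a3 between the CCl4 groups. Leaving out a sample gave ranges of -0.19 to 0.17, -0.29 to 0.10 and -0.30 to 0.072 for Serpinh1 in the 3 comparisons, -0.29 to 0.16 for Col5a1 and -0.088 to 0.25 for Col27a1 in cirrhosis & eplerenone, and -0.52 to 0.030 for Col27a1 in cirrhosis. Between the CCl4 groups they were -0.23 to 0.24 for Col16a1, -0.041 to 0.14 for Plod1, -0.27 to 0.44 for Plod2, -0.0021 to 0.41 for Col4a1, -0.00078 to 0.39 for Col4a5, -0.51 to 0.43 for Col5a3 and -0.082 to 0.12 for Col18a1. Over these alternatives 1190 log2FC kept direction and side of the threshold, 100 lost a call, 15 gained one and 59 changed sign. Depth limits the members with few reads, such as Col9a3 and Col11a1.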
